A study of Mus musculus with 4 samples.

Results

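Semaphorins, plexins and neuropilins, the ligands and receptors of a guidance system for axons and migrating neurons, were examined in cells sorted from the basal telencephalon of mouse embryos at E14.5. The genes were taken by symbol as every semaphorin of classes 3 to 7, every plexin of classes A to D and both neuropilins, which gave 31 of the 56883 genes in the expression table. They comprised 20 semaphorins, 9 plexins and 2 neuropilins. The control embryos carried Sst-Cre and a Cre-dependent tdTomato reporter, and the Dnmt1 KO embryos carried in addition floxed Dnmt1 (Sst-Cre/tdTomato/Dnmt1 loxP2), so that both genotypes shared the Cre driver and the reporter. The mice were kept on a C57BL/6J background, to which the floxed Dnmt1 allele came from a stock of mixed B6 and 129S origin. Cre is driven by the somatostatin gene, and tdTomato-positive cells were collected by fluorescence-activated sorting. Each genotype had 2 libraries of total RNA, each made from cells of several pooled embryos without regard to sex. The paper describes separately processed samples but also RNA isolated from cells pooled per genotype. Whether the 2 libraries of a genotype come from separate pools is therefore not certain. Each test measures the spread between libraries and not between animals.

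Semaphorins are secreted or membrane-bound ligands, and plexins are their main receptors. Secreted class 3 semaphorins mostly act through a complex in which a neuropilin binds the ligand and a class A plexin passes the signal to the cytoskeleton, whereas most membrane-bound semaphorins bind plexins directly. Interneurons born in the basal telencephalon express neuropilins and class A plexins while they migrate to the cortex, and Sema3a and Sema3f made in the striatal territory repel them. Plxnd1 and Nrp1 are also well known as receptors of endothelial cells in growing vessels.

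The comparison asked which ligands and receptors differed in RNA level between Dnmt1 KO and control cells, Dnmt1 being the enzyme that copies DNA methylation at CpG sites. The control libraries held 8376711 and 7276779 recovered reads, and the Dnmt1 KO libraries 7744944 and 6970247. The 31 genes took 0.295% and 0.297% of these reads in the control and 0.315% and 0.319% in the Dnmt1 KO libraries. Libraries of the same genotype were distinguishable from each other, with chi-square values per degree of freedom of 2.84 and 2.40, against 10.3 to 10.6 between genotypes. Dnmt1 itself had normalized read counts of 2238 and 2341 in the control and 2164 and 2210 in the Dnmt1 KO libraries, a log2 difference of −0.07 that did not pass the test. The deposited count runs over the whole gene and does not separate transcripts without the floxed exons, so it does not check the deletion.

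The promoters of the 2 called members with the largest rise and the 2 with the largest fall, as fitted without correction for length and GC content, are shown, since CpG sites are where Dnmt1 acts. Each stretch covers the 300 bases before the start of the canonical transcript in GRCm39, read 5′ to 3′ on the gene's strand, with the dinucleotide CG in capitals.
Sema3a (chr5:13448496-13448795, plus strand): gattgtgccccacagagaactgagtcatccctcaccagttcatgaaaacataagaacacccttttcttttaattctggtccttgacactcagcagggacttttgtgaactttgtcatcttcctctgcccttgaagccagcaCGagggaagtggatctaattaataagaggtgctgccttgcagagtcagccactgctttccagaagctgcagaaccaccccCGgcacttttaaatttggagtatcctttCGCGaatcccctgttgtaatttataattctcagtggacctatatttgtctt
Plxna2 (chr1:194301799-194302098, plus strand): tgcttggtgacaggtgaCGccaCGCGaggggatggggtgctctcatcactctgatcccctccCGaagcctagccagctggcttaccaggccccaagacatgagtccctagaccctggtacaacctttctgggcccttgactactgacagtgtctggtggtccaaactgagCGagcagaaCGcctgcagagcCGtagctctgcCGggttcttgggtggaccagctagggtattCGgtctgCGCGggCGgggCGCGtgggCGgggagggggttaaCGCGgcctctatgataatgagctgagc
Plxnd1 (chr6:115972287-115972586, minus strand): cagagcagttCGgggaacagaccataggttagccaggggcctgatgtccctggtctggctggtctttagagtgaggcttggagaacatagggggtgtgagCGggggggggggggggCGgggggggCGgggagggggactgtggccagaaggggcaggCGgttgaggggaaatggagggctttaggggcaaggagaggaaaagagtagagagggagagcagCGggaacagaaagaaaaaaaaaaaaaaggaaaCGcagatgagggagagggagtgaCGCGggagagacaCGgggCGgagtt
Sema5a (chr15:32244619-32244918, plus strand): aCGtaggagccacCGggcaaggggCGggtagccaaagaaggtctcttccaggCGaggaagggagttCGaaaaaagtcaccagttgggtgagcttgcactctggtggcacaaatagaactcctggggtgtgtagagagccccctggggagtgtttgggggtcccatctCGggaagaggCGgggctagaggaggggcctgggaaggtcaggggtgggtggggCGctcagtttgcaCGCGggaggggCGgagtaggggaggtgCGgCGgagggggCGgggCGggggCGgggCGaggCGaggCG

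The promoters differed widely in CpG content. Only the canonical start of each gene was read. The stretches of Sema3a and Plxna2 lie inside the annotated spans of these genes, which begin at 13175288 and 194300526. Starts of other transcripts farther upstream were not examined. The stretch of Sema3a held 4 CpG sites, fewer than most of the 12278 tested coding genes, of which 6.47% had still fewer. Plxna2 had 17, Plxnd1 11 and Sema5a 19, against a median of 15.0 over all tested coding genes (quartiles 8 and 22). The CpG counts of members that rose, fell or were not called overlapped. The 5 members higher in Dnmt1 KO cells ranged from 4 sites (Sema3a) to 36 sites (Nrp2), the 4 lower members from 9 (Sema5b) to 19 (Sema5a), and the 18 members that were not called from 2 (Sema3f) to 40 (Sema6d). At least 1 CG was present in 99.3% of the promoters of all tested coding genes. The homeodomain core TAATTA, which reads the same on both strands, occurred in the promoters of Sema3a and Sema3c and in 3.76% of the tested coding genes. Methylation of these stretches was not analysed here, and a motif match is a description of the letters alone.

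Of the 31 genes, 27 had a mean normalized read count of at least 10 and were tested with limma on log2(normalized count + 1), with Benjamini-Hochberg adjustment over all 14323 genes tested. At an adjusted p below 0.05, 9 of the 27 were called and 18 were not. Sema3a, Plxna2, Sema6b, Plxna3 and Nrp2 were higher in Dnmt1 KO cells, and Plxnd1, Sema5a, Sema5b and Nrp1 were lower. The 5 higher genes are 18.5% of those tested, where 8.3% of all genes tested were called higher. The 4 lower genes are 14.8%, where 8.99% of all genes were called lower. Of the members, 26 averaged at least 100 counts, whereas the shares of all genes include less abundant ones. With a minimum mean count of 50, 6 members were higher and 4 lower of 26 tested. Of all 10385 genes tested with that minimum, 1166 were higher and 1149 lower. The median log2 fold change of the 27 was 0.06, beside −0.0033 over all genes tested. The 2 genotypes did not overlap for 19 of the 27, against 57.4% of all genes tested, so a lack of overlap was common in this table. Without the replicate 2 library of the Dnmt1 KO, 3 members were called higher and 3 lower. Limma without the variance trend called 0 of the 27, with 4 higher and 5 lower at an unadjusted p below 0.05, whereas edgeR on recovered reads called 5 higher and 4 lower and DESeq2 4 and 3.

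**Figure D1:**
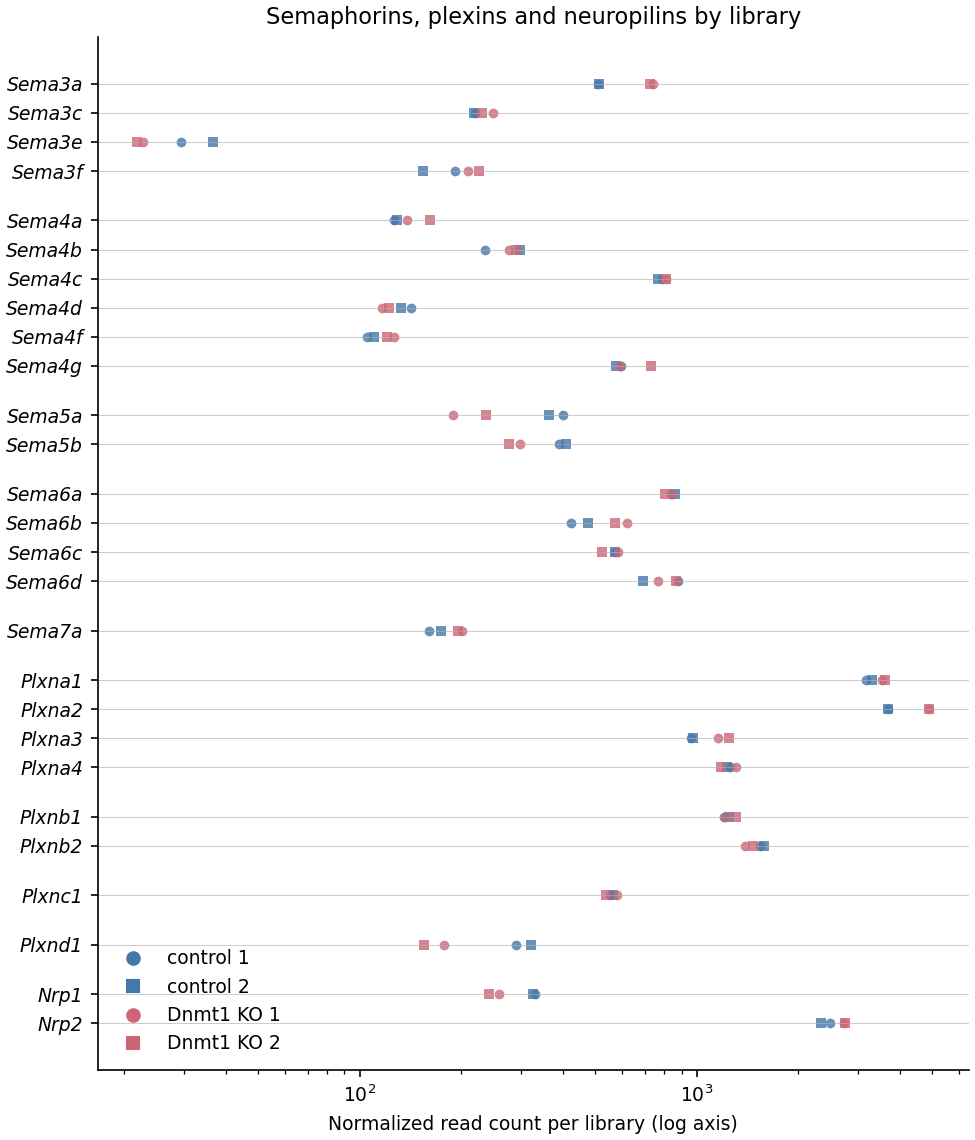
Normalized read count of each of the 27 genes tested (log axis) in the 2 control libraries (blue) and the 2 Dnmt1 KO libraries (red), with circles for replicate 1 and squares for replicate 2. Plxna2 and Plxna1 were the most abundant by read count and Sema3e the least, and the control and Dnmt1 KO points of Sema3a, Plxna2, Sema5a and Plxnd1 lie well apart.

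Among the class 3 semaphorins, the secreted ligands, Sema3a was called higher and none of the other 3 tested was called. Sema3a, which repels growing axons through Nrp1 and class A plexins, had normalized read counts of 509 and 514 in the control and 741 and 724 in the Dnmt1 KO libraries. Both Dnmt1 KO libraries lay above both controls, and the replicates of each genotype lay close together. The log2 fold change was 0.52 (SE 0.08, adjusted p = 0.000328). It was 0.30 (adjusted p = 0.0163) after a correction for transcript length and GC content, and it remained called with any single library left out (adjusted p at most 0.00327). Sema3a lies on chromosome 5 at 13175288 to 13653578 of GRCm39.

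Sema3f, the ligand that acts mainly through Nrp2, had counts of 192 and 154 in the control and 209 and 226 in the Dnmt1 KO libraries. The log2 fold change of 0.34 (SE 0.14) did not pass the test (adjusted p = 0.117). Sema3c, which can attract as well as repel, had 219 and 218 against 248 and 231, with a log2 fold change of 0.13 (adjusted p = 0.53). For both genes the Dnmt1 KO libraries were the higher pair, without a call. After the correction for length and GC content Sema3c turned to −0.0067, and Sema3f ranged from 0.18 to 0.49 with a library left out, the lowest without replicate 2 of the control. Sema3e, which binds Plxnd1 without a neuropilin, rested on few reads, 33 and 36 in the control and 23 and 20 in the Dnmt1 KO libraries. Its log2 fold change was −0.55 with an SE of 0.33 (adjusted p = 0.297), so a difference of this size was not detectable at this depth. Sema3b, Sema3d and Sema3g had between 2 and 18 reads in every library and were not tested.

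The summed class 3 count was 980 and 948 in the control and 1247 and 1220 in the Dnmt1 KO libraries. Levels of different genes were compared per length, as TPM, reads divided by transcript length and scaled to the same total in each library. On that scale Sema3a was the leading class 3 semaphorin, with 42.0% and 44.8% of the class in the control and 49.6% and 49.2% in the Dnmt1 KO libraries. Sema3f held 28.6% and 24.4% in the control and 25.3% and 27.8% in the Dnmt1 KO libraries, so its shares overlapped between genotypes.

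None of the 6 class 4 semaphorins, which are membrane-bound, was called. Sema4c, a ligand of Plxnb2, had the highest read count of the class, with 789 and 765 in the control and 810 and 807 in the Dnmt1 KO libraries (log2 fold change 0.06). Sema4g had 597 and 574 in the control and 590 and 729 in the Dnmt1 KO libraries. The second Dnmt1 KO library stood above the other three, and the call turned on which library was used, since Sema4g was called at an adjusted p of 0.0357 without the replicate 1 library of the Dnmt1 KO and not with all 4 libraries (adjusted p = 0.281). Sema4b had 235 and 299 against 277 and 290 counts, and its log2 difference of 0.09 turned to −0.08 without the replicate 1 control library.

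The remaining class 4 genes were less abundant. Sema4a had 126 and 129 counts in the control and 138 and 162 in the Dnmt1 KO libraries (log2 fold change 0.23, adjusted p = 0.353). Sema4f had 105 and 110 against 126 and 120 (0.20, adjusted p = 0.466). Sema4d, the ligand of Plxnb1, had 141 and 133 against 116 and 122 (−0.20, adjusted p = 0.436). These 3 genes did not overlap between genotypes, yet none was called. The test relies on a spread shared across genes and adjusts p over all genes tested. Sema4d shares 1766 exonic bases with Secisbp2 and Sema4g 1181 with Mrpl43, both expressed from the opposite strand, and whether reads were counted by strand is not given in the sources used here, so both counts are uncertain.

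Both class 5 semaphorins, membrane proteins with thrombospondin repeats that can repel axons through Plxna1 and Plxna3, were lower in Dnmt1 KO cells. Sema5a had normalized read counts of 400 and 364 in the control and 188 and 236 in the Dnmt1 KO libraries. Its log2 fold change was −0.85 (SE 0.12, adjusted p = 0.000221), and both Dnmt1 KO libraries lay far below both controls. Sema5b had 389 and 408 counts in the control and 299 and 278 in the Dnmt1 KO libraries, a log2 fold change of −0.47 (SE 0.10, adjusted p = 0.00508). The genotypes did not overlap for either gene, and both remained called with any single library left out, at adjusted p of at most 0.00663 for Sema5a and 0.0448 for Sema5b. Summed over the class, the count was 789 and 773 in the control and 487 and 514 in the Dnmt1 KO libraries. The fall of Sema5a exceeded that of Sema5b by 0.39 on the log2 scale (SE 0.16, the genes' errors taken as independent).

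Sema5a lies on chromosome 15 at 32244919 to 32696487 and Sema5b on chromosome 16 at 35360820 to 35485102. Sema5a shares 631 exonic bases with Snhg18 on the opposite strand, which had 17.0 and 22.5 counts in the control and 2.96 and 10.9 in the Dnmt1 KO libraries. These counts are small beside those of Sema5a, whose lowest library held 188.

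Of the 4 class 6 semaphorins, membrane proteins that bind class A plexins without a neuropilin, Sema6b alone was called. Sema6b, a ligand of Plxna4, had 423 and 475 normalized read counts in the control and 620 and 570 in the Dnmt1 KO libraries, so the genotypes did not overlap. The log2 fold change was 0.41 (SE 0.09, adjusted p = 0.00637), and the call was lost without the replicate 1 control library (adjusted p = 0.059). Sema6b lies on chromosome 17 at 56430078 to 56449459. Sema6a, a ligand of Plxna2 and Plxna4, had 835 and 864 counts in the control and 844 and 803 in the Dnmt1 KO libraries. Sema6c had 572 and 573 against 582 and 524 counts, and Sema6d, a ligand of Plxna1, had 881 and 693 against 768 and 869. The genotypes overlapped for these 3 genes, with log2 fold changes of −0.04, −0.05 and 0.06, whose sign changed under other settings. Sema7a, anchored to the membrane by a lipid and a ligand of Plxnc1, had 160 and 174 counts against 201 and 196, without a call (log2 fold change 0.25, adjusted p = 0.225).

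The class A plexins, the signalling partners of neuropilins, contained the receptor with the highest read count, and 2 of the 4 rose in Dnmt1 KO cells. Plxna2 had normalized read counts of 3684 and 3681 in the control and 4885 and 4887 in the Dnmt1 KO libraries. The replicates of each genotype were almost equal, while the level in the Dnmt1 KO was 1.33 times that in the control. The log2 fold change was 0.41 (SE 0.04, adjusted p = 1.58e-05), the smallest adjusted p among the members. It was 0.41 whichever library was left out, which follows from the near-equal replicates and adds no separate support. Plxna3 had 960 and 972 counts in the control and 1152 and 1246 in the Dnmt1 KO libraries. Its log2 fold change was 0.31 (SE 0.07, adjusted p = 0.00547), and the call was lost without the replicate 2 library of the Dnmt1 KO (adjusted p = 0.0564).

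Plxna1 had 3185 and 3301 counts in the control and 3532 and 3623 in the Dnmt1 KO libraries. The genotypes did not overlap, and the log2 fold change of 0.14 (SE 0.05) narrowly missed the threshold (adjusted p = 0.0577). It was called when the mean count minimum was 50 (adjusted p = 0.046) or with limma-voom on recovered reads (0.0373). Plxna4, the partner of Nrp1 in Sema3a signalling, had 1252 and 1224 counts in the control and 1308 and 1177 in the Dnmt1 KO libraries, a log2 fold change of 0.0031 (SE 0.07) with overlapping genotypes. Plxna2 shares 2650 exonic bases with Gm6403 on the opposite strand, which had 25.1 and 35.7 counts in the control and 31.6 and 32.8 in the Dnmt1 KO libraries, far fewer than Plxna2. Plxna2 lies on chromosome 1 at 194300526 to 194499177 and Plxna3 on chromosome X at 73372672 to 73388295.

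The class A plexins did not change alike. In 6 pairwise differences of log2 fold change, with the genes' errors taken as independent, Plxna2 exceeded Plxna4 by 0.40 (SE 0.08) and Plxna1 by 0.27 (SE 0.07), and Plxna3 exceeded Plxna4 by 0.31 (SE 0.10). Plxna3 exceeded Plxna1 by 0.17 (SE 0.08, 2.00 times its error), and Plxna1 exceeded Plxna4 by 0.14 (SE 0.08, 1.65 times its error). Plxna2 and Plxna3 differed by 0.10 (SE 0.08), a difference near its error. Per length, Plxna2 made up 41.7% and 41.2% of the class in the control and 45.8% and 45.3% in the Dnmt1 KO libraries, while Plxna4 made up 12.1% and 11.8% against 10.5% and 9.35%. The summed count of the class was 9081 and 9178 in the control and 10878 and 10932 in the Dnmt1 KO libraries.

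**Figure D2:**
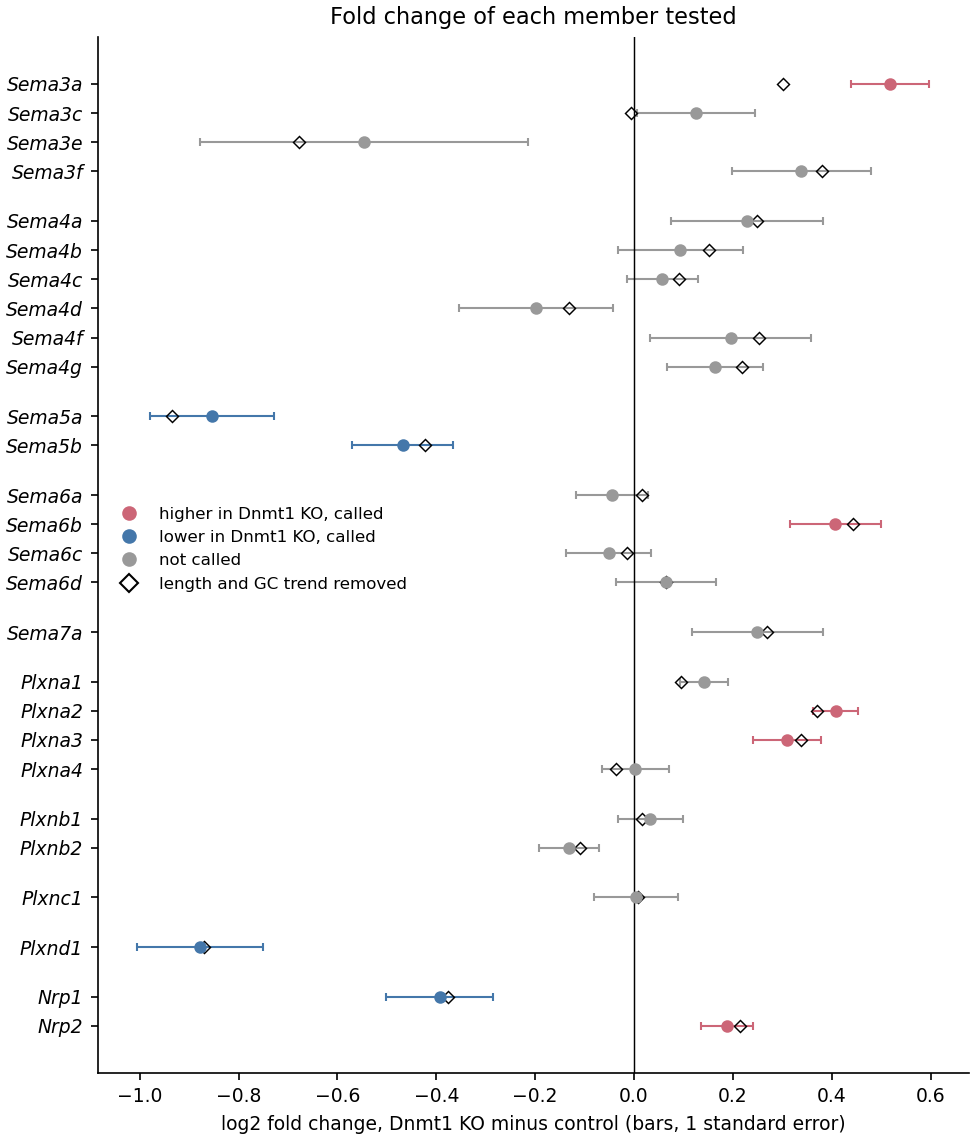
Log2 fold change of each of the 27 genes tested, Dnmt1 KO minus control, with 1 standard error (limma, 2 libraries per genotype) in red or blue where called and grey where not, and an open diamond for the value after correction for transcript length and GC content. Sema5a and Plxnd1 lie farthest to the left of the called members and Sema3a farthest to the right, but the diamond moves Sema3a from 0.52 to 0.30, below those of Sema6b (0.44), Plxna2 (0.37) and Plxna3 (0.34).

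Neither of the 2 class B plexins tested, receptors for class 4 semaphorins, was called. Plxnb1 had 1206 and 1244 counts in the control and 1207 and 1302 in the Dnmt1 KO libraries (log2 fold change 0.03), and it shares 513 exonic bases with Gm7628 on the opposite strand, at 7.15 to 24.2 counts. Plxnb2 had 1542 and 1579 against 1387 and 1463, and its log2 fold change of −0.13 (SE 0.06) did not pass the test (adjusted p = 0.161), although the genotypes did not overlap. Plxnb3 was at 0 reads in all 4 libraries, and Plxnc1, the receptor of Sema7a, had 553 and 563 counts against 581 and 539 (log2 fold change 0.0043, SE 0.08).

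Plxnd1, the receptor of Sema3e, was lower in Dnmt1 KO cells, by an amount that differed from the fall of Sema5a by less than the error of either. Its normalized read counts were 290 and 323 in the control and 178 and 155 in the Dnmt1 KO libraries, so both Dnmt1 KO libraries lay well below both controls. The log2 fold change was −0.88 (SE 0.13, adjusted p = 0.000201), a level 0.544 times that of the control, and it remained called with any single library left out (adjusted p at most 0.00668). In these bulk samples, fewer cells of a type and less RNA per cell cannot be told apart. Plxnd1 lies on chromosome 6 at 115931772 to 115972286.

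The 2 neuropilins moved in opposite directions. Nrp2, the coreceptor for Sema3f, had normalized read counts of 2475 and 2341 in the control and 2732 and 2756 in the Dnmt1 KO libraries. Nrp1, the coreceptor for Sema3a and for vascular endothelial growth factor, had 331 and 327 in the control and 259 and 241 in the Dnmt1 KO libraries. Neither gene overlapped between genotypes.

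The log2 fold change was 0.19 (SE 0.05, adjusted p = 0.0222) for Nrp2 and −0.39 (SE 0.11, adjusted p = 0.0207) for Nrp1. The 2 values differed by 0.58 (SE 0.12). The separate calls depended on single libraries. That of Nrp2 was lost without the replicate 2 control library (adjusted p = 0.135) and without replicate 1 (0.0664) or replicate 2 (0.0935) of the Dnmt1 KO, and that of Nrp1 without replicate 1 (0.0894) or replicate 2 (0.0777) of the control and replicate 2 of the Dnmt1 KO (0.1). Quantile normalization also ended the call of Nrp2 (log2 fold change 0.13, adjusted p = 0.082). DESeq2 on recovered reads called neither (adjusted p = 0.0543 for Nrp2 and 0.151 for Nrp1). Per length, the ratio of Nrp2 to Nrp1 was 5.73 and 5.49 in the control and 8.07 and 8.75 in the Dnmt1 KO libraries, so the ratios of the genotypes did not overlap. Nrp1 lies on chromosome 8 at 129085085 to 129231082 and Nrp2 on chromosome 1 at 62742444 to 62857854.

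**Figure D3:**
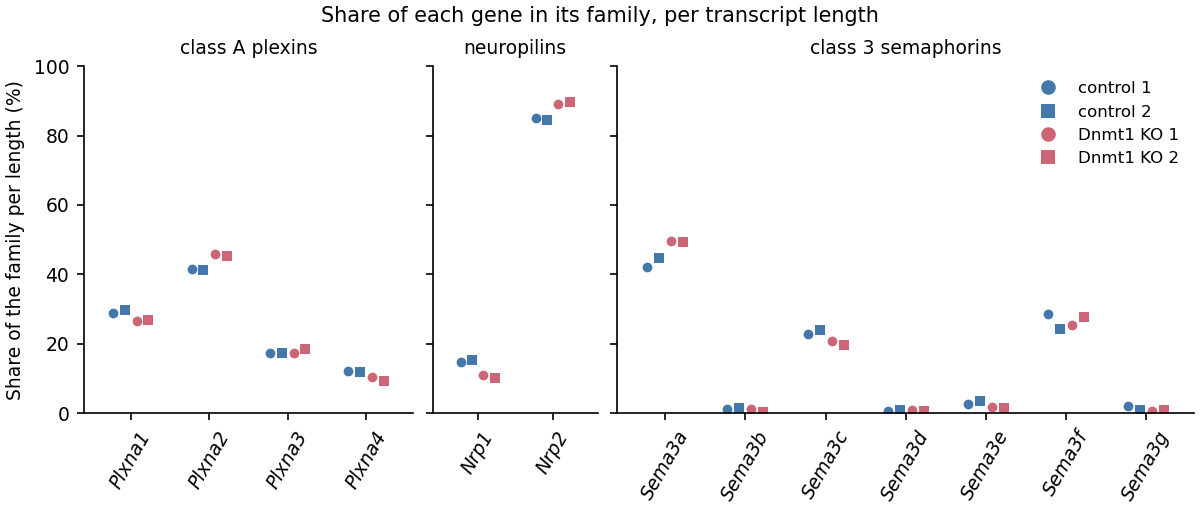
Share of each gene in its family per transcript length (percent, from 0 to 100), by library, for the class A plexins, the neuropilins and the class 3 semaphorins, with control in blue, Dnmt1 KO in red, circles for replicate 1 and squares for replicate 2. Nrp2 held 85.1% and 84.6% of the neuropilins in the control and 89.0% and 89.7% in the Dnmt1 KO libraries.

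The order of genes per length rests on a single transcript length taken for each gene, an uncertainty that the SD leaves out. With these lengths, the order of the receptors was led by Nrp2 and Plxna2 in both genotypes. In the control, Nrp2 stood at 91.5 ± 2.94 TPM (SD, n = 2) and Plxna2 at 85.5 ± 0.576, followed by Plxna1 at 60.3 ± 1.96 and Plxnb2 at 59.9 ± 1.45, which did not differ beyond their spread. In the Dnmt1 KO, Plxna2 stood at 110.8 ± 1.84 and Nrp2 at 102 ± 2.28, so the leading pair changed places with the lengths used. Plxnd1 was the lowest of the receptors tested in both, at 10.9 ± 0.902 in the control and 5.78 ± 0.456 in the Dnmt1 KO. Among the ligands, Sema6a at 43.4 ± 1.35 and Sema6c at 36.4 ± 0.305 led in the control, followed by Sema4c at 34.7 ± 0.524 and Sema4g at 33.1 ± 0.684. Sema6d (29.4), Sema6b (21.9) and Sema5b (21.0) also stood above Sema3a at 17.7 ± 0.234. In the Dnmt1 KO, Sema4g at 36.5 ± 6.02 and Sema4c at 35.2 ± 0.504 exceeded Sema6c at 34.4 ± 1.96, though not beyond their spread. Sema3a reached 24.7 ± 0.0145 in the Dnmt1 KO.

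Several members host transcripts that the annotation lists inside their span on the same strand, of the class TEC, meaning intervals whose coding status is yet to be settled by experiment. Of 13 such transcripts, 1 (Gm48718 in Plxnc1, not tested) shares 115 bases with exons of its host and the others lie in introns. Of the 13, 6 were tested and 4 were higher in Dnmt1 KO cells, 3 of them in Plxna2 and 1 in Sema3a. This is beside 21.8% of the 616 TEC transcripts tested in the whole table. Their reads cannot be told apart from unspliced RNA of the host gene.

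In Plxna2, Gm38036 had 60.9 and 48.0 counts in the control and 117 and 99.4 in the Dnmt1 KO libraries, a log2 fold change of 0.99 (SE 0.21, adjusted p = 0.00445). Gm37783 had 74.3 and 69.4 against 106 and 134 (0.72, adjusted p = 0.0166), and Gm37674 had 33.1 and 32.7 against 68.1 and 54.6 (0.87, adjusted p = 0.0323). All 3 lay higher in both Dnmt1 KO libraries, with fold changes above the 0.41 of Plxna2 itself. The median log2 fold change of all TEC transcripts tested was 0.68, against −0.017 for protein-coding genes, so a value above that of a coding gene was common to this class. Gm38036 remained called with any single library left out. Gm37783 was lost without replicate 1 (adjusted p = 0.0539) or replicate 2 (0.0893) of the control and replicate 2 of the Dnmt1 KO (0.146), and Gm37674 without replicate 1 (0.1) or replicate 2 (0.114) of the control and replicate 1 of the Dnmt1 KO (0.191).

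In Sema3a, Gm42675 had 8.05 and 12.3 counts in the control and 25.6 and 27.3 in the Dnmt1 KO libraries (log2 fold change 1.33, SE 0.43, adjusted p = 0.0442). Its call was lost whichever library was left out, at adjusted p of 0.0564 to 0.173. Gm43130 had 16.1 and 17.4 against 32.6 and 35.0 and was not called (adjusted p = 0.0696). In Nrp2, Gm37121 had 8.95 and 8.17 against 6.90 and 19.7 counts, with overlapping genotypes.

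**Figure D4:**
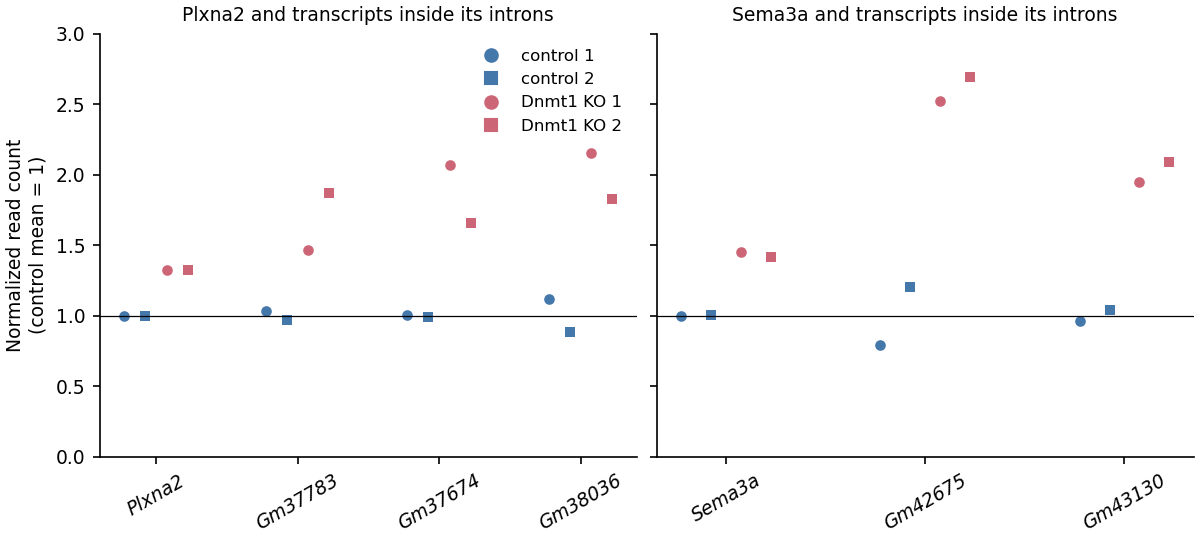
Normalized read count of Plxna2 (left) and Sema3a (right) and of the tested transcripts inside their introns, each divided by its control mean, with control libraries in blue, Dnmt1 KO libraries in red, circles for replicate 1 and squares for replicate 2. Every Dnmt1 KO point lies above the control points of the same transcript.

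The lists of known partners of these receptors and of their intracellular effectors were examined next. Of 60 genes tested, 18 (30.0%) rose in Dnmt1 KO cells and 6 (10.0%) fell, beside 8.3% and 8.99% of all genes tested. The share that fell was near that of all genes. Both lists were written with earlier results of these data known, so these shares describe the lists and do not test the pathway. Among the 17 partners tested, a mixed list of coreceptors, other receptors and further binding partners, 6 were higher and 3 lower, with a median log2 fold change of −0.13. Met, the receptor of hepatocyte growth factor that associates with class B plexins, had 20.6 and 13.3 counts in the control and 41.4 and 35.0 in the Dnmt1 KO libraries (log2 fold change 1.15, adjusted p = 0.0372), a call lost without replicate 2 of the control (adjusted p = 0.203) and without replicate 1 (0.147) or replicate 2 (0.0524) of the Dnmt1 KO. Nrcam, Chl1 and Ncam1, cell adhesion molecules of the immunoglobulin family, of which Nrcam and Chl1 take part in neuropilin complexes, were each called higher. The related L1cam was not called (log2 fold change −0.04, adjusted p = 0.715), and Cntn2 of the same family was called lower.

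Nrcam had 1647 and 1566 counts in the control and 2226 and 2287 in the Dnmt1 KO libraries (log2 fold change 0.49). Chl1 had 2445 and 2206 against 2962 and 3079 (0.38), and Ncam1 had 8063 and 7832 against 10088 and 10350 (0.36). Both Dnmt1 KO libraries lay above both controls for all 3 genes. The lower partners were Flt1 and Kdr, receptors of vascular endothelial growth factor that associate with Nrp1, and Cntn2, an axonal adhesion molecule. Flt1 had 54.6 and 75.5 counts in the control and 25.6 and 27.3 in the Dnmt1 KO libraries (log2 fold change −1.25, adjusted p = 0.00605), and its call was lost without the replicate 2 control library (adjusted p = 0.11). Kdr had 129 and 129 against 49.3 and 79.8 (−1.03), and Cntn2 had 1121 and 1031 against 762 and 707 (−0.55).

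Among the 43 effectors tested, 12 were higher and 3 lower, with a median log2 fold change of 0.09. The 4 with the largest rise were Mical2, Arhgef12, Rock1 and Cdk5r1. Arhgef12, a guanine nucleotide exchange factor bound by class B plexins, had 2375 and 2237 counts in the control and 3075 and 3226 in the Dnmt1 KO libraries (log2 fold change 0.45). Rock1, a kinase that acts on the actomyosin cytoskeleton, had 559 and 630 against 758 and 865 (0.45), and Cdk5r1, the activator of the kinase Cdk5, had 2646 and 2849 against 3525 and 3366 (0.33). The Dnmt1 KO libraries lay above the controls for these 3 genes. Mical2, of a family of enzymes that oxidise actin, had 18.8 and 55.1 counts in the control and 87.8 and 78.7 in the Dnmt1 KO libraries, so the control libraries differed widely. Its log2 fold change was 1.34 (SE 0.36) with all 4 libraries and 0.58, without a call (adjusted p = 0.181), without the replicate 1 control library.

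The 3 lower effectors were the whole Rnd family, small GTPases that bind plexins. Rnd2 had 330 and 316 counts in the control and 185 and 188 in the Dnmt1 KO libraries (log2 fold change −0.79). Rnd3 had 1067 and 1162 against 879 and 828 (−0.38). Rnd1 had 30.4 and 23.5 against 11.8 and 6.56 (−1.49, adjusted p = 0.0332), and its call was lost without replicate 1 (adjusted p = 0.188) or replicate 2 (0.0892) of the control and replicate 2 of the Dnmt1 KO (0.125). Both Dnmt1 KO libraries lay below both controls for each of the 3.

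Markers of cell types moved between the genotypes in the same libraries. All 10 genes listed for Sst interneurons (Sst, Lhx6, Sox6, Satb1, Npy, Gad1, Gad2, Slc32a1, Dlx1 and Dlx2) were higher in Dnmt1 KO cells. Their summed counts were 20454 and 20740 in the control and 30481 and 30696 in the Dnmt1 KO libraries. Sema3a, Plxna2, Sema6b, Plxna3 and Nrp2 rose in the same libraries. The paper reports Lhx6, Sox6, Satb1 and Dlx2 as raised and differentially methylated in these Dnmt1 KO cells. It gives reduced methylation near the transcription start for Dlx2, and no matching promoter loss for Lhx6, Sox6 and Satb1. It counts Dlx1, Dlx2, Lhx6 and Satb1 among regulators of GABAergic interneurons, so the list is not confined to the Sst type. Whether more cells or more RNA per cell underlies the rise of the list was not tested. The 10 genes were well expressed in all 4 libraries. Of 8 endothelial markers tested, all 8 were lower (Cdh5, Pecam1, Kdr, Flt1, Tek, Tie1, Cldn5 and Esam), with sums over the list of 563 and 564 against 222 and 240 and a median log2 fold change of −1.26. Kdr and Flt1 stand in both this list and that of the partners. The log2 fold change of Plxnd1 was −0.88 and that of Nrp1 −0.39. Medians of the other lists that fell were −0.80 (radial glia and progenitors), −0.93 (excitatory lineage) and −1.07 (pericytes and fibroblasts). Those of microglia, the oligodendrocyte lineage and blood were −1.32, −0.58 and −2.09.

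Other lists fell too. Of 10 markers of radial glia and progenitors, 8 were lower (Nes, Vim, Fabp7, Slc1a3, Hes5, Pax6, Mki67 and Top2a) and Sox2 was higher, with sums of 14283 and 14321 against 8930 and 9103. Of 8 markers of the excitatory lineage, 6 were lower (Slc17a6, Eomes, Emx1, Tbr1, Neurod2 and Neurod6), with sums of 2660 and 2696 against 1510 and 1377. Pericytes and fibroblasts had 5 of 6 lower (Pdgfrb, Col1a1, Col1a2, Col3a1 and Rgs5), with sums of 393 and 432 against 189 and 196. All 7 blood markers tested were lower (Alas2, Hba-a1, Hba-a2, Hba-x, Hbb-bs, Hbb-bt and Hbb-y), with sums of 2591 and 2400 against 576 and 590.

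Microglial markers had 1 of 2 lower (Csf1r), with sums of 70.7 and 93.9 against 24.7 and 36.1, and none of 4 oligodendrocyte markers passed the test, with sums of 208 and 170 against 139 and 111. No marker was at 0 in all 4 libraries. Emcn, Dcn, Lum, Aif1, Tyrobp, P2ry12, C1qa, Tmem119, Sox10 and Hbb-bh1 were near 0 and were not tested. The part of these cell types in the changes of Plxnd1, Sema5a, Sema5b and Nrp1, or of the interneuron markers in the rise of the other members, was not tested.

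**Figure D5:**
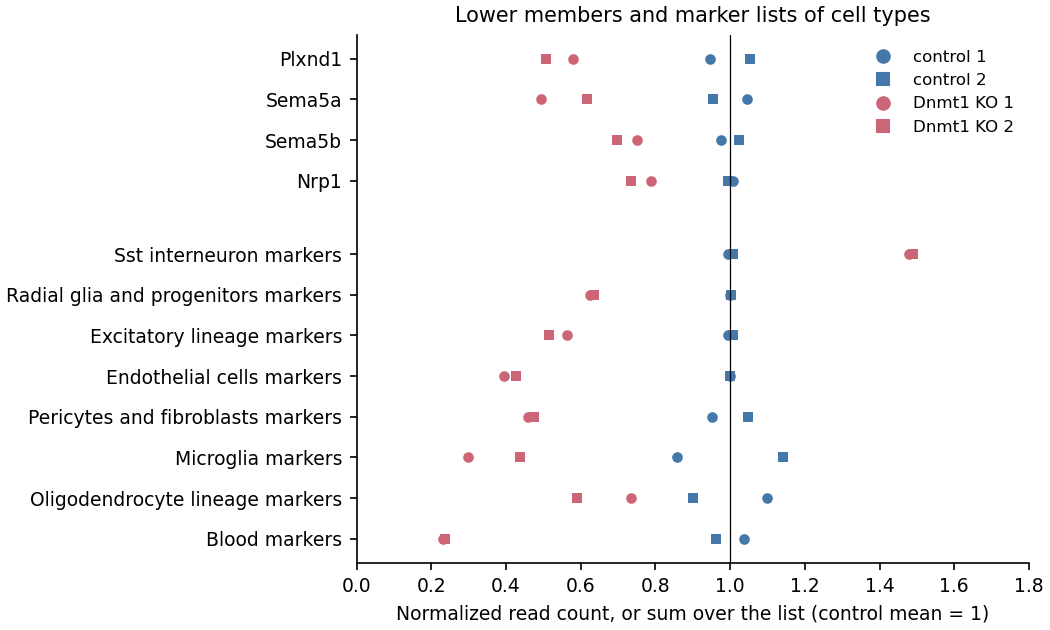
Normalized read count of the 4 lower members, and below them the summed count of each list of cell type markers, in each library divided by the control mean, with control in blue, Dnmt1 KO in red, circles for replicate 1 and squares for replicate 2. The 4 members lie below their control mean in both Dnmt1 KO libraries, as do the sums of every list except that of Sst interneurons, which lies above.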

How the data were processed

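Total RNA of tdTomato-positive cells sorted at E14.5 was sequenced from 2 control and 2 Dnmt1 KO libraries, grouped by the sample labels. Upstream, the authors used Trim Galore for trimming, STAR with GRCm39 for alignment, Salmon for gene counts and DESeq2 for normalization. The signal they deposited is a normalized count, reads over a size factor. Whole counts could be recovered from all 89965 non-zero values (100%, tolerance 0.0001 of a read). These are the gene counts from Salmon as whole numbers, called recovered reads here. Recovered reads ranged from 6970247 to 8376711 per library. The library kit marks strand, and whether the counting used it is not given in the sources used here. Other assays of the study were not analysed here.

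For the 14323 genes whose normalized count averaged 10 or more, limma 3.58.1 in R 4.3.3 was fitted to log2(normalized count + 1) with genotype alone, letting the prior variance follow mean expression. Fold changes are on this scale, which understates the change of low genes. Calls were made where p after Benjamini-Hochberg adjustment was below 0.05. An exact permutation test of 2 against 2 libraries cannot go below 0.333 and was not used. On recovered reads, the quasi-likelihood test of edgeR 4.0.16 called 1226 genes higher and 1302 lower in Dnmt1 KO cells, beside 1189 and 1287 with limma. DESeq2 1.42.0 and limma-voom were run on the same reads. Other alternatives were pseudocounts of 0.5 and 10, a minimum mean count of 1 or 50 or none, TMM factors, quantile normalization, no variance trend, a correction for transcript length and GC content (splines, 5 degrees of freedom, fitted per library), a block for replicate number, and leaving out each library. With a library left out, the remaining library of that genotype is assumed to vary like the others. The same alternatives were run after the data were seen for the transcripts inside introns. The model steps were tested on simulated data.

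Positions, exons and transcript lengths came from GENCODE vM39 on GRCm39, and promoter sequences from the GRCm39 genome. Levels per length used the transcript with the longest coding sequence. Python 3.11.15, pandas 2.3.3, numpy 2.4.6 and matplotlib 3.10.9 were used. The members, the partner, effector and marker lists and the tests were chosen with earlier results of these data known. Values are given for members called or with 100 or more normalized counts on average, and for Sema3e, the other member tested. Of the partner and effector lists, the 4 called genes with the largest rise and the 4 with the largest fall are named, and of the marker lists those called or near 0. An item that falls under this rule is not reported here.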

Additional observations from a re-analysis of the deposited data

How the results depend on the processing

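With 2 libraries per genotype, each call rests on the spread that limma shares across genes. Without the variance trend, 0 members, 0 partner or effector genes and 0 of all genes were called in either direction, while 4 members were higher and 5 lower at an unadjusted p below 0.05 (1507 and 1832 of all genes) and the smallest adjusted p among members was 0.0714. DESeq2 called 634 genes higher and 683 lower, and 4 members higher and 3 lower, edgeR 5 and 4, and limma-voom 6 and 4. Of 162 values of the 9 called members over 18 alternatives, 142 kept direction and call and 20 kept direction only. With a library left out, 3 to 5 members were higher and 3 to 4 lower, 13 to 14 partner or effector genes higher and 4 to 7 lower, and 787 to 959 of all genes higher and 738 to 1246 lower. Without control replicate 2, 787 genes were higher and 738 lower, and without control replicate 1, 787 were lower.

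Deviations of same-numbered libraries did not go together (correlation −0.085), so the numbers were not taken to pair them. With the replicate block, 5 members were higher and 4 lower, as without it, and 1402 and 1555 of all genes. With the block and the length and GC trend removed, 12 partner or effector genes were lower, 6 members were higher and 4 lower, Sema3f being the addition (adjusted p = 0.0436).

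Some members without a call changed sign, and the cause of these changes, and of the changes in the counts above, was not tested. Under quantile normalization the log2 fold change was −0.057 for Plxna4, −0.017 for Plxnb1 and −0.016 for Plxnc1. With the length and GC trend removed, with or without the replicate block, it was −0.035 for Plxna4, −0.0067 for Sema3c and 0.016 for Sema6a. With a library left out, it ranged from −0.073 to 0.079 for Plxna4, −0.021 to 0.088 for Plxnb1, −0.050 to 0.059 for Plxnc1, −0.078 to 0.27 for Sema4b, −0.13 to 0.024 for Sema6c, −0.11 to 0.24 for Sema6d and, among transcripts inside introns, −0.27 to 1.11 for Gm37121.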
